A study of Mus musculus with 16 samples.

Results

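The nuclear-encoded respiratory chain subunits were followed in 16 cultures of neural progenitor cells from the cortex of E18.5 mouse embryos. Members were all protein-coding genes with a symbol that begins Ndufa, Ndufb, Ndufc, Ndufs, Ndufv, Uqcr, Cox4 to Cox8 or Atp5, plus Sdha, Sdhb, Sdhc and Sdhd, with the Ndufaf assembly factors and pseudogenes left out. This gave 86 members of 49166 genes with a matched transcript: 38 of complex I, 4 of complex II, 8 of complex III, 18 of complex IV and 18 of complex V. The low-count filter kept 82 members among 16971 genes tested, and the other 4 (Cox4i2, Cox7b2, Cox8c and a second gene identifier annotated as Atp5o) are described by level only. Ndufa4 is today counted with complex IV, while Cox7a2l is a supercomplex factor that is not a core subunit. Genes of the chain under other names, such as Usmg5, Atpif1 and Cyc1, fall outside the rule.

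All cells carried Cas9 from a lentivirus and went through 48 h of puromycin selection. The 3 knockout groups (KO) also received a guide RNA against Chd1, a chromatin remodeller, and the cells labelled WT received Cas9 without a guide. Of the KO groups, KO DHT+ENZ saw 10 µM enzalutamide (ENZ, an antagonist of the androgen receptor) for 30 min before 10 nM dihydrotestosterone (DHT, an androgen) was added for 24 h. KO DHT saw the androgen without ENZ, and KO DMSO and WT DMSO saw the solvent. Each group had 4 biological replicates drawn from embryos of 2 litters, and which replicate came from which litter is not given. WT cells with DHT, or cells with ENZ alone, are not among the samples. Cells were selected and expanded, and no cloning of edited cells is described.

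The respiratory chain sits in the inner mitochondrial membrane. Complexes I and II take electrons from NADH and succinate, complex III passes them by way of cytochrome c to complex IV, which reduces oxygen, and the protons pumped on the way drive ATP synthase, complex V. Most subunits are encoded in the nucleus and a few in mitochondrial DNA, and several subunits of complex IV come in a widespread form and in a form known from heart and skeletal muscle. Nuclear genes of the chain are known targets of the factors NRF1, GABP (an ETS protein) and YY1 in mammalian cells.

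The shallowest library, WT DMSO replicate 1, held 20.2 M estimated counts, the rest 31.8 to 36.9 M each, and no pair of libraries was a copy (highest correlation 0.9986). Members took 1.12% to 1.49% of a library's counts. Chd1 itself was at 59.9 to 77.0 CPM (a gene's counts scaled to the same library total), with no difference called in KO DMSO over WT DMSO (log2 fold change 0.01, SE 0.08, adjusted p = 0.9998, edgeR), but small edits leave a transcript that is still counted, so this level does not check the knockout. Markers of progenitors and radial glia summed to 6398 to 8411 TPM (the same for transcripts, scaled by effective length), with 9 of 10 above 1 TPM and Fabp7 and Vim the largest parts. Other neural lists were also detected: the oligodendrocyte lineage summed to 1215 to 1611 TPM, nearly all from Olig1 and Olig2, with Sox10, Mbp and Pdgfra each averaging under 1 TPM. The neuron list summed to 249 to 518 TPM, mostly Map2, and the astrocyte list to 31.5 to 137 TPM, mostly Aldh1l1. The summed lists of microglia, pericytes and fibroblasts, endothelium and erythroid cells stayed at or below 4.52 TPM, with C1qa, Pdgfrb and Hbb-bs at or near 0. Mean fragment length, read from the deposited effective lengths, ran from 280 bases in KO DHT+ENZ replicate 3 to 345 bases in WT DMSO replicate 3. It was 339, 314, 280 and 341 bases in KO DHT+ENZ replicates 1 to 4, and 320, 325, 324 and 343 bases in KO DHT.

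TPM is scaled by transcript length and so allows genes to be set against each other. Members summed to 36810 ± 953 TPM in KO DHT+ENZ, 34803 ± 1343 in KO DHT, 35682 ± 1109 in KO DMSO and 34661 ± 1256 in WT DMSO (SD, n = 4 each). The ranges of these sums overlapped between groups compared. By complex, the sum of the 8 complex III members was 4555, 4532, 4552 and 4541 TPM in KO DHT+ENZ, above all libraries of KO DHT (4066 to 4410), KO DMSO (4157 to 4407) and WT DMSO (4063 to 4270), whose ranges overlapped each other. Complex II summed to 849 to 901 TPM in KO DMSO, and to 841 to 873 TPM in KO DHT+ENZ, both above the 783 to 829 TPM of WT DMSO. Complex IV in KO DHT+ENZ (8581 to 8906 TPM) overlapped KO DHT (7837 to 8700) and KO DMSO (8134 to 8652), and lay above WT DMSO (7925 to 8533). The sums of complexes I and V overlapped between all groups. For complex I they were 10772 to 11621 TPM in KO DHT+ENZ and 10264 to 10948 in KO DHT. For complex V they were 11010 to 12232 and 10329 to 11501 TPM. The sums were not tested and carry no scaling between libraries beyond that of TPM. Of the 82 tested members, 74 averaged over 100 TPM and 3 were under 10 TPM. Complex I members had a median of 244 TPM, complex II 213 TPM, complex III 575 TPM, complex IV 464 TPM and complex V 474 TPM.

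**Figure D1:**
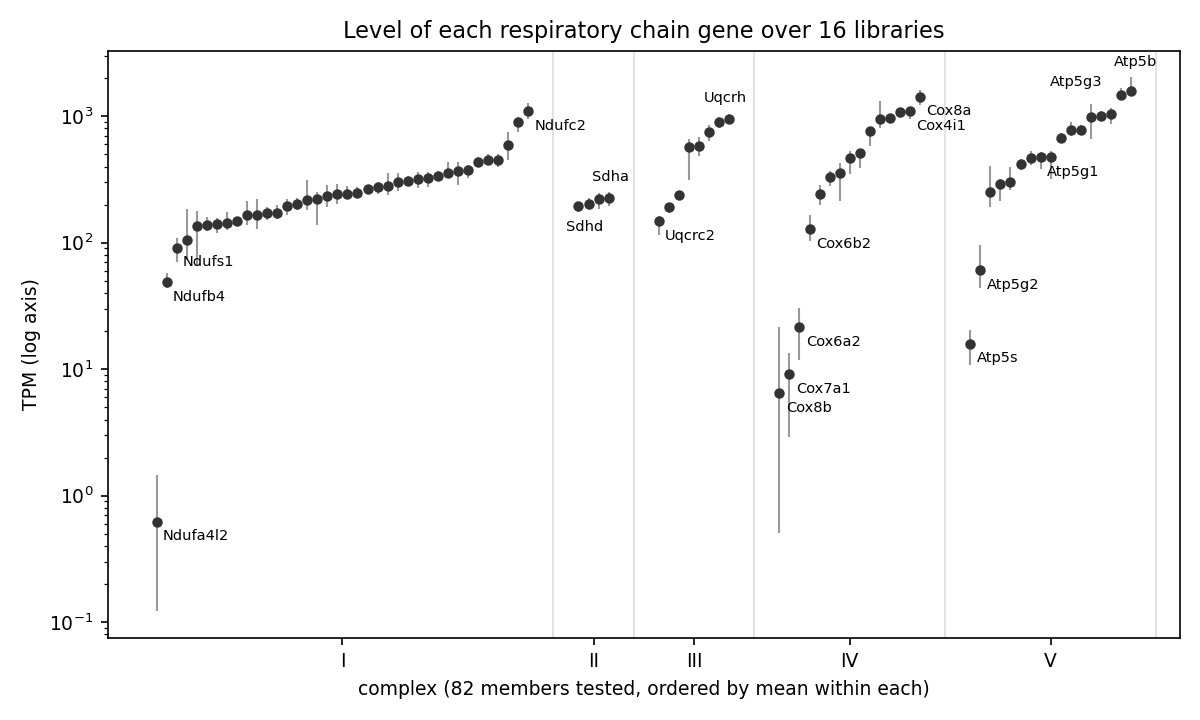
Level of the 82 tested members in TPM on a log axis, by complex and in rising order within it. Points are means over 16 libraries and lines run from the lowest to the highest library; Atp5b, Atp5g3 and Cox8a lead, while Ndufa4l2, Cox8b and Cox7a1 lie below 10 TPM.

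In complex I, Ndufc2, an accessory subunit of the membrane arm, was highest at a mean of 1099 TPM and Ndufa4l2, a hypoxia-linked relative of Ndufa4, lowest at 0.62 TPM. Ndufb4, at 49.0 TPM, is uncertain, since Ndufb4c, annotated as a pseudogene, was given 277 TPM. Complex II was the most even: Sdha, the flavoprotein that oxidises succinate, averaged 226 TPM, the iron-sulfur subunit Sdhb 222 TPM, and the membrane anchors Sdhc and Sdhd 204 and 195 TPM. The order Sdha, Sdhb, Sdhc, Sdhd follows the means only, as the ranges over libraries of neighbours overlapped. In complex III, Uqcrh, a hinge protein at cytochrome c1, reached 951 TPM and Uqcrc2, a core subunit, was lowest at 147 TPM. In complex V, Atp5b, the catalytic beta subunit, averaged 1586 TPM and Atp5s, a coupling factor that is not a core subunit, 15.9 TPM.

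In complex IV the widespread form of each alternative subunit held most of the RNA. Cox4i1 supplied 99.95% of the TPM of subunit 4 and Cox8a 99.56% of subunit 8, on average over libraries. Cox6a1 supplied 98.0% and Cox6a2, the heart and muscle form, 1.96%. Cox6b2, known from testis, supplied 14.4% of subunit 6b beside 85.6% from Cox6b1. Cox7a2 held 58.6% and Cox7a2l 40.4% of the 7a family, against 1.05% for Cox7a1, its muscle form. Cox7b2 supplied 0.057% of subunit 7b and Cox8c was listed at 0 in every library. Subunit c of ATP synthase, the rotating ring, came to 73.5% from Atp5g3, 23.4% from Atp5g1 and 3.03% from Atp5g2, which encode the same mature protein.

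Promoter windows from RefSeq (GRCm38.p6, 250 bases before to 50 after the annotated start) were held for 68 members. Both strands were searched for the NRF1 core GCATGCGC, the ETS core CCGGAAG and the YY1 word AAGATGGCG. The NRF1 word was in 14.71% of member windows and 2.8% of all 27025, the ETS word in 22.06% and 9.12%, the YY1 word in 8.82% and 1.49%, and any of them in 38.24% and 12.55%. These shares are a description of letters in a window and were not tested. The pair below shows the low-count Cox8b and its abundant partner Cox8a, both forms of subunit 8. The third window is that of Ndufab1, the mitochondrial acyl carrier protein. Capitals mark the ETS word, found in Cox8a as its reverse complement 5 bases before and 32 after the start, and in Cox8b the TATA word TATAAA, 4 bases after the start. The TATA word was added after the windows had been read. It is in 10.29% of member windows and 14.16% of all. The Ndufab1 window holds none of these words. All 3 lie on the minus strand, at chr7:140900397-140900696 (Cox8b), chr19:7217567-7217866 (Cox8a) and chr7:122101799-122102098 (Ndufab1).
Cox8b: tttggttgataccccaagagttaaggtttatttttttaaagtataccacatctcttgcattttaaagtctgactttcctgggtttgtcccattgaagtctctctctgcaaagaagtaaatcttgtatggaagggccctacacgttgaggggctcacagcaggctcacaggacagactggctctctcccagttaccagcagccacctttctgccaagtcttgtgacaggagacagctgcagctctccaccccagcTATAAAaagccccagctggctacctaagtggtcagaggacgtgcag
Cox8a: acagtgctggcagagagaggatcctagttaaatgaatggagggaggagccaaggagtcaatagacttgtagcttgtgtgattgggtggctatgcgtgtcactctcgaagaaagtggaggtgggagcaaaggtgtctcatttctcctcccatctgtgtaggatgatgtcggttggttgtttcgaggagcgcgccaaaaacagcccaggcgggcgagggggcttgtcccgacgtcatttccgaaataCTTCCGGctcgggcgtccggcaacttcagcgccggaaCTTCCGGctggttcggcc
Ndufab1: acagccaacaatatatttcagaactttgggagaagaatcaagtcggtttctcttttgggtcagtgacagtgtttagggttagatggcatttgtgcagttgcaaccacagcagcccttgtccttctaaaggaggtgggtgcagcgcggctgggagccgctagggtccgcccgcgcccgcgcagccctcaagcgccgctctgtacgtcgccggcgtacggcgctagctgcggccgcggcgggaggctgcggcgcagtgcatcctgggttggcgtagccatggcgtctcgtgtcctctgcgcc

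KO DHT+ENZ was set against KO DHT to ask what the antagonist changes in cells given the androgen. The members lay higher in KO DHT+ENZ: 81 of 82 had a positive log2 fold change and their median was 0.21, beside -0.00 for all genes tested. None passed at an adjusted p under 0.05 in edgeR's quasi-likelihood test without pairing, where 0.265% of all genes did. An unadjusted p under 0.05 was found for 18 of 82 members and 1182 of all 16971 genes. DESeq2 called 3 members, and its share of all genes was not taken. With the replicate number as a block, 7 members rose and 0 fell, 8.54% of members, against 1.57% of all genes called higher and 1.92% called lower. Among genes averaging 10 CPM or more, short genes of all kinds were called higher more often than long ones. The share was 6.64% under 750 bases and 7.67% from 750 to 1000 bases, and most members are short. It was 1.57% from 2500 to 4000 bases and 0.449% from 4000 bases. The share over all 16971 genes has no such limit on level, so it is not the base of these shares. The 7 were Sdhc, Uqcrc2, Ndufb2, Cox5b, Atp5g1, Cox6a2 and Cox8b. The blocked count depended on which cultures were included. Leaving out all 4 libraries of a replicate number gave 46 without number 1, 1 without number 2, 1 without number 3 and 0 without number 4. Leaving out the single library WT DMSO replicate 1 gave 25. The shares of all genes called in these fits were not taken, so whether the counts are particular to members was not tested. In the same comparison Mki67, a marker of dividing cells on the progenitor list, fell: it was at 35.7, 26.6, 30.6 and 35.4 TPM in KO DHT+ENZ, against 52.0, 51.6, 57.3 and 58.7 TPM in KO DHT, with no overlap (log2 fold change -0.69, SE 0.10, adjusted p = 0.00752, edgeR without the block). Mki67 was chosen after its values were seen, and its part in the members' result was not tested. Other progenitor markers over 1 TPM moved less. Notch1 averaged 26.85 TPM in KO DHT+ENZ and 33.57 in KO DHT, and Sox2 157.8 and 171.1. Vim alone was higher in KO DHT+ENZ (1781 against 1679 TPM). Hes5, under 1 TPM, was at 0.60 and 0.99. In bulk RNA, fewer cells of a type and less RNA per cell cannot be told apart.

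Cox6a2, the muscle form of subunit 6a, had the smallest adjusted p of the members. It was at 7.48, 8.76, 7.66 and 6.77 CPM in KO DHT+ENZ replicates 1 to 4, against 4.19, 5.58, 3.30 and 3.82 CPM in KO DHT. Every KO DHT+ENZ library lay above every KO DHT library. The blocked log2 fold change was 0.87 (SE 0.14, adjusted p = 0.00302, edgeR), and 0.86 without the block (adjusted p = 0.15). Its share of subunit 6a TPM was 2.47% ± 0.20 in KO DHT+ENZ and 1.59% ± 0.40 in KO DHT (SD, n = 4 each). The share of Cox6b2 in subunit 6b went the other way, at 12.1% ± 0.67 in KO DHT+ENZ and 14.2% ± 2.19 in KO DHT. It was 15.0% ± 0.48 in KO DMSO and 16.3% ± 1.52 in WT DMSO (SD, n = 4 each). In CPM, Cox6b2 averaged 16.8 ± 2.60 in KO DHT+ENZ and 17.4 ± 3.25 in KO DHT. Shares were not tested.

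Cox8b, the muscle form of subunit 8, was near the limit of detection. It had 34, 23, 32 and 23 estimated counts in KO DHT+ENZ, against 10, 4, 7 and 3 in KO DHT, which is 1.00, 0.74, 1.05 and 0.71 CPM in KO DHT+ENZ, against 0.29, 0.12, 0.21 and 0.08 CPM in KO DHT. Again the groups did not overlap. Cox8b passed the low-count filter only through the KO DHT+ENZ libraries, the group where it was high. Its call and its lack of overlap are therefore not independent of that filter. The blocked log2 fold change was 2.37 (SE 0.58, adjusted p = 0.0383, edgeR). Its share of subunit 8 TPM was 0.98% ± 0.32 in KO DHT+ENZ and 0.25% ± 0.14 in KO DHT (SD, n = 4 each). The third muscle form, Cox7a1, had 23, 25, 37 and 15 estimated counts in KO DHT+ENZ, against 21, 21, 22 and 23 in KO DHT, and did not pass. The muscle markers Ckm, Myh3 and Acta1 summed to 0.041 to 0.29 TPM in KO DHT+ENZ and 0.12 to 0.19 TPM in KO DHT.

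The other members called with the block moved less. Sdhc, a membrane anchor of complex II, was at 188, 231, 223 and 201 CPM in KO DHT+ENZ, against 163, 171, 179 and 170 CPM in KO DHT, with no overlap (0.30, SE 0.06, adjusted p = 0.00927, edgeR with the block). Uqcrc2 was at 175, 207, 199 and 181 CPM in KO DHT+ENZ, against 152, 177, 165 and 152 CPM in KO DHT. Its groups overlapped, since KO DHT replicate 2 lay above KO DHT+ENZ replicate 1, but each KO DHT+ENZ library was above the KO DHT library of its number (0.24, SE 0.06, adjusted p = 0.0316, edgeR with the block).

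Ndufb2, an accessory subunit of complex I, was at 43.0, 57.4, 59.0 and 43.6 CPM in KO DHT+ENZ, against 40.6, 41.7, 37.7 and 34.8 CPM in KO DHT (0.38, SE 0.09, adjusted p = 0.0333, edgeR with the block). Cox5b, a zinc-binding subunit of complex IV, was at 125, 169, 178 and 133 CPM in KO DHT+ENZ, against 122, 125, 116 and 115 CPM in KO DHT (0.33, SE 0.08, adjusted p = 0.0401, edgeR with the block). For both, KO DHT+ENZ replicates 2 and 3 stood highest; the groups did not overlap for Ndufb2, while for Cox5b replicate 1 of KO DHT+ENZ lay level with replicate 2 of KO DHT. Atp5g1 was at 164, 213, 222 and 161 CPM in KO DHT+ENZ, against 147, 176, 177 and 132 CPM in KO DHT (0.26, SE 0.06, adjusted p = 0.0290, edgeR with the block). Its groups overlapped.

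**Figure D2:**
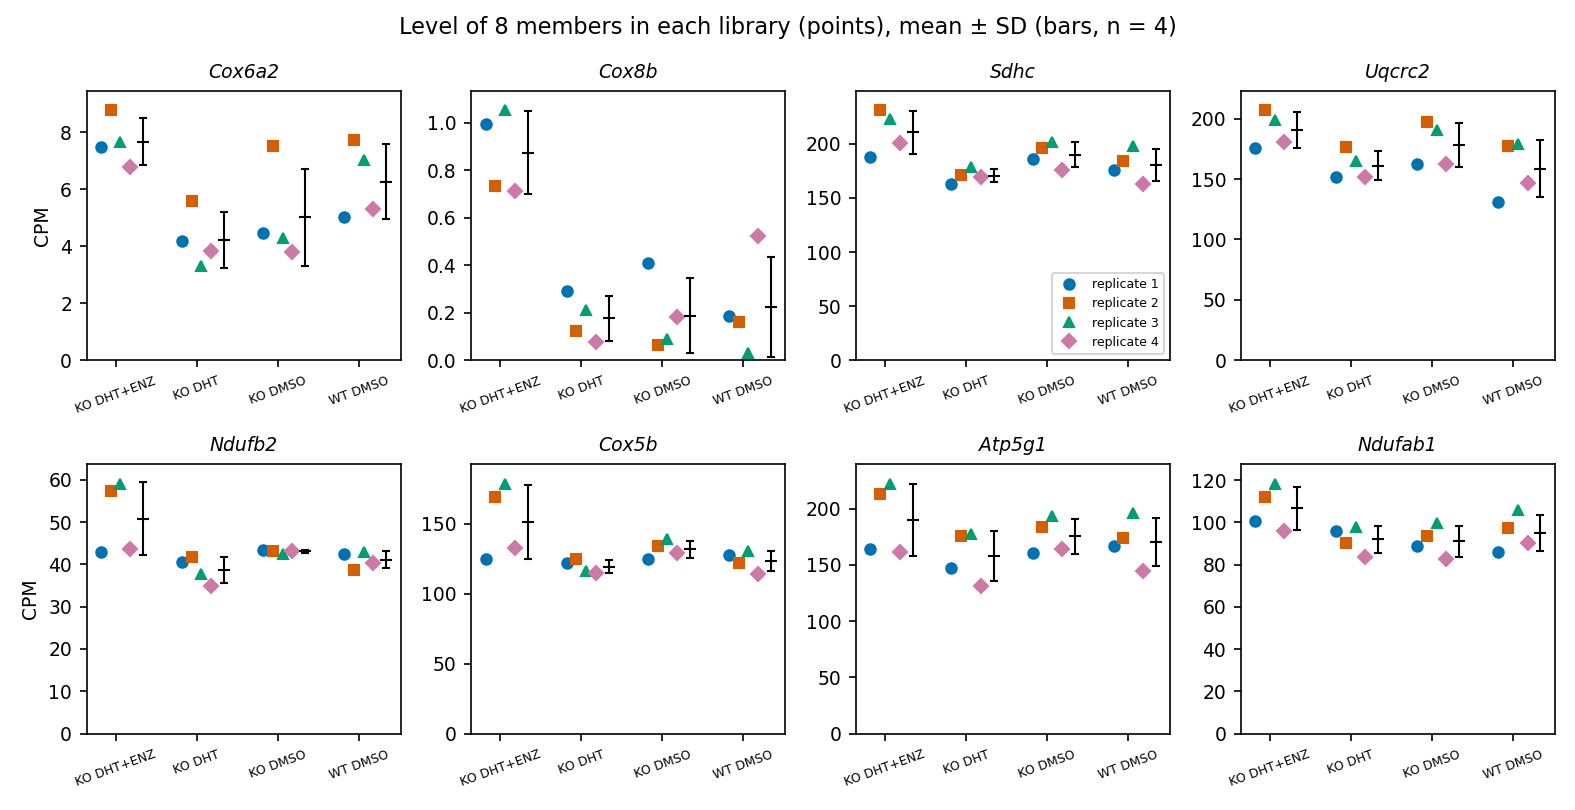
CPM of 8 members in each library, by group, with a marker and colour per replicate number and mean ± SD (n = 4) beside the points. Cox6a2 and Cox8b are higher in all 4 KO DHT+ENZ libraries than in any KO DHT library, while for Ndufb2 and Cox5b replicates 2 and 3 carry most of the difference.

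Other members close to the threshold in the blocked fit did not pass: Ndufb6 (0.31, adjusted p = 0.0564), Ndufab1 (0.21, adjusted p = 0.0611), Ndufb5 (0.23, adjusted p = 0.0735), Cox8a (0.29, adjusted p = 0.0837) and Ndufa11 (0.25, adjusted p = 0.0867). By complex, the median log2 fold change was 0.21 for complex I (38 of 38 positive), 0.14 for complex II (4 of 4), 0.27 for complex III (8 of 8), 0.23 for complex IV (14 of 15) and 0.23 for complex V (17 of 17). Within replicate numbers the median member differed by -0.01, 0.36, 0.31 and 0.19 in numbers 1 to 4. In number 1, 35 of 82 members were positive, against 80, 76 and 80 in numbers 2, 3 and 4, and the number 1 median was 0.08 for complex III, with 5 of 8 positive. After the length correction the medians of all members were 0.03, 0.10, 0.09 and 0.08 in numbers 1 to 4. Those of all genes were -0.01, -0.02, -0.01 and -0.01. Mean fragment lengths of KO DHT+ENZ and KO DHT were 339 and 320 bases in number 1, and 314 and 325 in number 2. They were 280 and 324 bases in number 3, and 341 and 343 in number 4. The part of fragment length in the difference between numbers was not tested. In total 28 members were higher in 4 of 4 numbers, 34.1% of the 82, against 14.0% of all genes, and 0 were lower in 4 of 4 (14.2%). In TPM, which takes in effective length, 18 members were higher in 4 of 4 numbers (4.8% of all genes) and 1 was lower (24.9%). The median member differed in TPM by -0.02, 0.13, 0.06 and 0.09, beside -0.02, -0.13, -0.09 and -0.07 for all genes. TPM was not scaled by TMM, so the all-gene shares carry this shift.

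**Figure D3:**
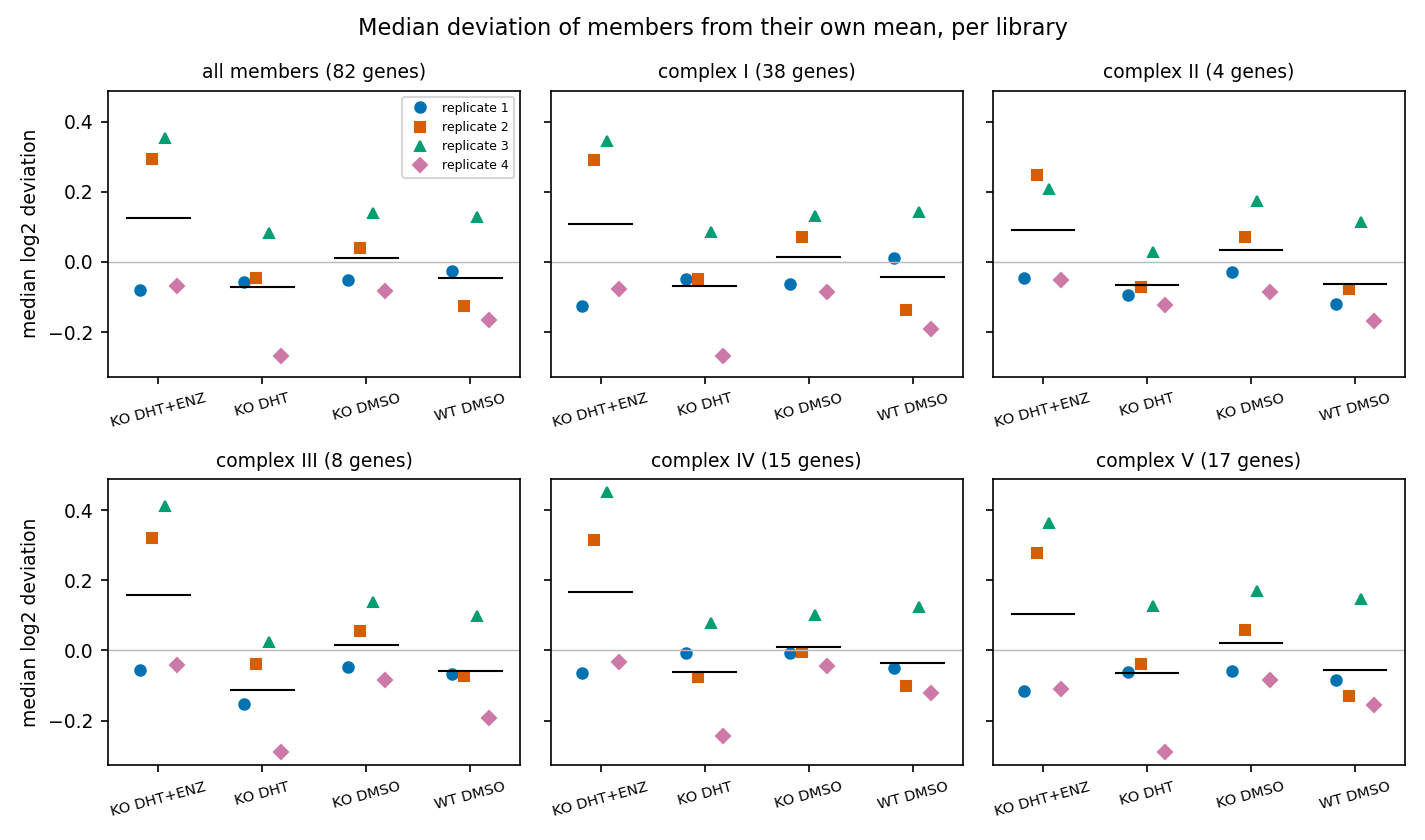
Median over members of log2 CPM minus the gene's own mean over 16 libraries, per library, for all 82 members and for each complex; black lines are group means. KO DHT+ENZ replicates 2 and 3 lie highest (0.29 and 0.35 over all members) in every complex, and KO DHT replicate 4 lowest (-0.27) in all but complex II, where WT DMSO replicate 4 is lowest.

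The members are short: their median transcript length was 732 bases, against 2403 bases over all genes tested, and 71 of 82 were under 1500 bases, against 24.9% of all. Among genes under 750 bases that averaged 10 CPM or more, the blocked median for KO DHT+ENZ over KO DHT was 0.24 for 40 members and 0.20 for all 286 genes. Between 1500 and 2500 bases it was 0.15 for 10 members and 0.04 for all 2628 genes. In that fit 6.64% of all genes under 750 bases were called higher, with 1 of 40 members. The shares were 7.67% from 750 to 1000 bases (2 of 16 members), 4.56% from 1000 to 1500 (0 of 10) and 3.16% from 1500 to 2500 (2 of 10). After each library was corrected for its own trend on transcript length, the blocked median of members was 0.08, beside -0.02 for all genes, and Cox6a2, Sdhc, Uqcrc2 and Cox8b were called (4 of 82, or 4.88%, against 1.28% of all genes called higher). With an offset for each gene's effective length in each library, which takes in fragment length, the median was 0.19, beside -0.00 for all genes tested. Among genes averaging 10 CPM or more, short genes of all kinds kept a rise in that fit. Under 750 bases the median was 0.20 for the 40 members and 0.17 for all 286 genes. From 750 to 1000 bases it was 0.17 for 16 members and 0.13 for all 391 genes. From 1500 to 2500 bases it was 0.16 for 10 members and 0.04 for all 2628 genes. With this offset Cox6a2 (0.85, adjusted p = 0.0192), Cox5b (0.31, adjusted p = 0.0391) and Ndufb2 (0.44, adjusted p = 0.0421) were called, against 0.625% of all genes called higher (edgeR with the block). The other 4 kept folds of 0.26 (Sdhc), 0.26 (Atp5g1), 0.24 (Uqcrc2) and 2.26 (Cox8b), with adjusted p-values of 0.0512, 0.0881, 0.0751 and 0.0784 in that fit. Cox6a2 was the single member called in all 3 blocked fits. The offset was chosen after the data were seen, and the part of fragment length in the result beyond these values was not tested.

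**Figure D4:**
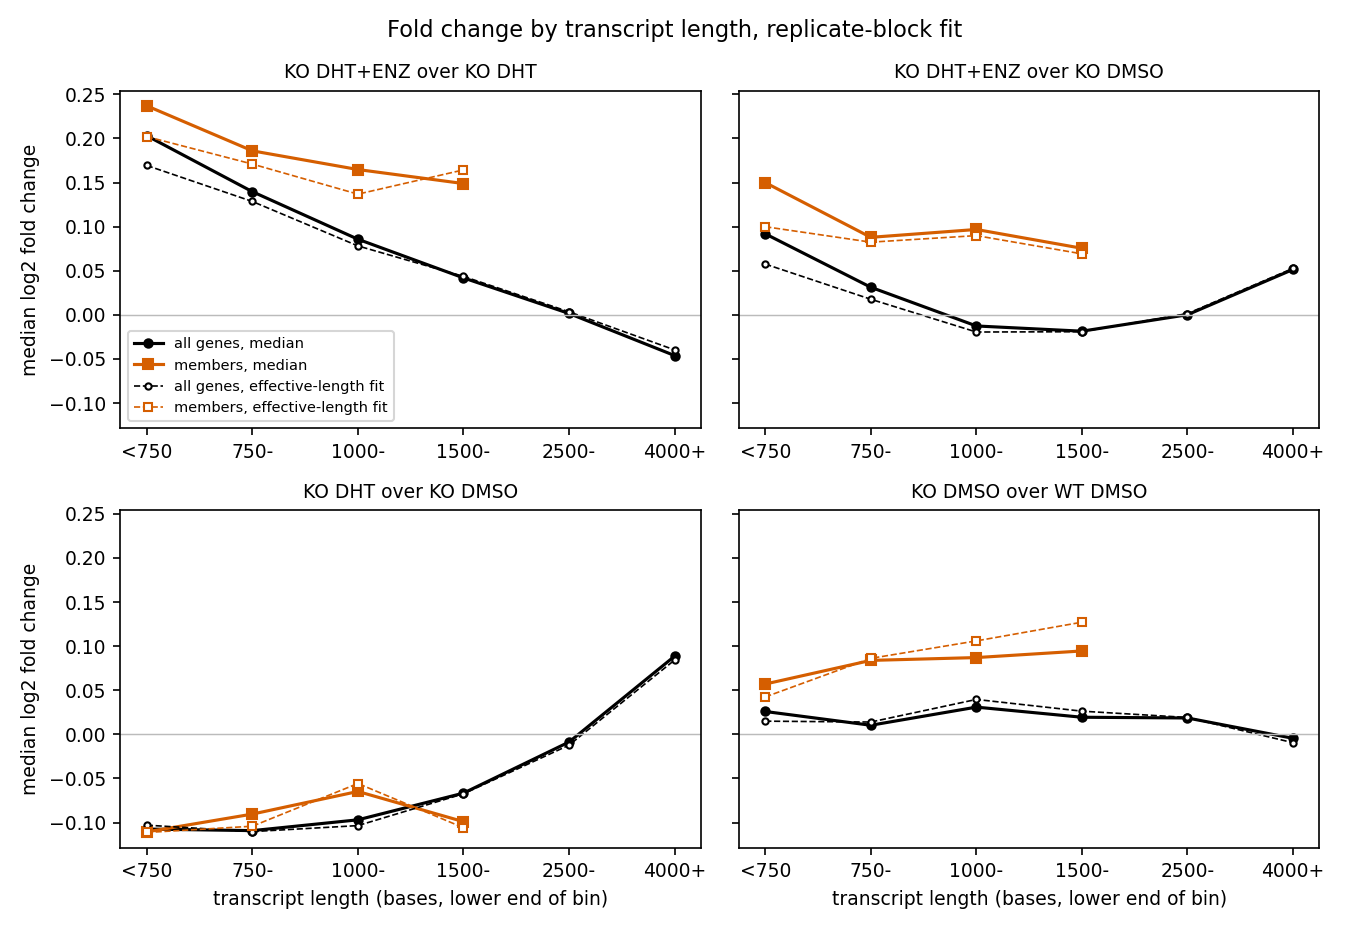
Median log2 fold change (blocked fit) by transcript length for all genes averaging 10 CPM or more (black) and for members (orange), before (solid) and after (dashed) the effective-length offset; member bins above 2500 bases hold 1 gene or none and are not drawn. Short genes of all kinds lie higher in KO DHT+ENZ over KO DHT and lower in KO DHT over KO DMSO.

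KO DHT+ENZ was also set against KO DMSO, cells that saw neither agent; the 2 ENZ comparisons share the KO DHT+ENZ libraries. Members lay higher by a median of 0.13, beside 0.01 for all genes, and 78 of 82 were positive. None passed without the block, where 0.253% of all genes did, and DESeq2 also called 0. Without the block 5 of 82 members had an unadjusted p under 0.05, beside 978 of all 16971 genes, a similar share. With the block 3 rose (3.66% of members, against 0.854% of all genes called higher) and 0 fell (2.09% of all genes). Of all genes under 750 bases averaging 10 CPM or more, 1.40% were called higher, with 0 of 40 members. The count of members was 4 without number 1, 1 without number 2, and 0 without number 3 or number 4. The shares of all genes in those fits were not taken. Mki67 was at 54.3, 38.2, 43.9 and 59.8 TPM in KO DMSO, all above KO DHT+ENZ (-0.57, SE 0.10, adjusted p = 0.0287, edgeR without the block). By complex the medians were 0.14, 0.06, 0.16, 0.17 and 0.12 for complexes I to V.

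The 3 were Cox6a2, Cox8b and Ndufab1. Cox6a2 was at 4.46, 7.53, 4.27 and 3.79 CPM in KO DMSO, so that KO DMSO replicate 2 lay within the range of 6.77 to 8.76 CPM of KO DHT+ENZ (0.65, SE 0.13, adjusted p = 0.0154, edgeR with the block). Cox8b had 14, 2, 3 and 6 estimated counts in KO DMSO and did not overlap (2.36, SE 0.58, adjusted p = 0.0417, edgeR with the block). Here too its entry to the test rested on the KO DHT+ENZ libraries. Ndufab1, which carries acyl chains for mitochondrial lipoate synthesis besides its place in complex I, was at 101, 112, 118 and 95.9 CPM in KO DHT+ENZ, against 88.8, 93.6, 99.9 and 82.5 CPM in KO DMSO. The groups overlapped and each number was higher in CPM (0.23, SE 0.06, adjusted p = 0.0493, edgeR with the block). All 3 were called after the length correction (against 1.18% of all genes called higher), with a median over members of 0.09. None was called with the effective-length offset (0.371% of all genes called higher), although the log2 fold changes stayed about as large: 0.62 for Cox6a2 (adjusted p = 0.0800), 2.33 for Cox8b (adjusted p = 0.0705) and 0.24 for Ndufab1 (adjusted p = 0.477, edgeR with the block). For Ndufab1 the SE was 0.12 in that fit. In TPM it was higher in only 2 of 4 numbers (-0.14, 0.44, 0.46 and -0.03 in numbers 1 to 4). The within-number medians were -0.04, 0.24, 0.22 and 0.03, and 19 members were higher in 4 of 4 numbers (23.2% of the 82, against 16% of all genes), with 0 lower (15.6%). In TPM, 14 were higher in 4 of 4 (8.33% of all genes) and 5 lower (20.2%). The TPM medians were -0.01, 0.05, -0.01 and 0.1 for members, beside -0.01, -0.06, -0.04 and -0.01 for all genes.

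In WT DMSO, Cox6a2 was at 5.02, 7.71, 7.03 and 5.29 CPM, with replicates 2 and 3 inside the KO DHT+ENZ range, and Cox8b had 4, 5, 1 and 18 estimated counts. WT DMSO replicate 4, at 0.52 CPM of Cox8b, lay below all 4 KO DHT+ENZ libraries. Cox7a1 averaged 0.50 ± 0.21 CPM in WT DMSO, the lowest of the group means, beside 0.79 ± 0.32 in KO DHT+ENZ, 0.63 ± 0.03 in KO DHT and 0.75 ± 0.26 in KO DMSO (SD, n = 4 each), and the groups overlapped. KO DHT+ENZ was not tested against WT DMSO, since genotype and treatment both differ.

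KO DHT was set against KO DMSO to ask for the effect of the androgen alone. The KO DHT libraries are also the reference of KO DHT+ENZ over KO DHT, so opposite signs in the 2 comparisons are not independent. Members lay slightly lower in KO DHT: 71 of 82 had a negative log2 fold change, with a median of -0.10, beside -0.00 for all genes tested. None was called with or without the block, as for all genes (0.0% called), and DESeq2 called 0. Without the block 1 of 82 members had an unadjusted p under 0.05, beside 193 of all 16971 genes. With the block 12 members did, beside 1358 of all genes. By complex the medians were -0.10, -0.09, -0.13, -0.09 and -0.10 for complexes I to V. The difference was -0.01, -0.10, -0.08 and -0.17 within numbers 1 to 4, and 28 members were lower in 4 of 4 numbers (34.1%, against 13.2% of all genes), with 0 higher (11.3%). In TPM, 14 were lower in 4 of 4 (5.43% of all genes) and 2 higher (16.6%). The TPM medians were 0.01, -0.07, -0.05 and -0.02 for members, beside 0.01, 0.06, 0.03 and 0.06 for all genes.

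Among these, Ndufa12, an accessory subunit of complex I, was at 80.7, 110, 111 and 85.4 CPM in KO DHT, against 123, 139, 134 and 105 CPM in KO DMSO. KO DHT replicates 2 and 3 lay above KO DMSO replicate 4, so the groups overlapped (blocked log2 fold change -0.37, SE 0.13, adjusted p = 0.606, edgeR). Ndufb10, another accessory subunit, was at 76.2, 98.5, 93.7 and 71.9 CPM in KO DHT, against 89.8, 114, 116 and 101 CPM in KO DMSO (-0.31, SE 0.11, adjusted p = 0.606, edgeR with the block). Sdhc (-0.15), Ndufa8 (-0.16), Ndufa11 (-0.19), Atp5g1 (-0.16) and Uqcrc2 (-0.14) were among those with the next smallest p-values and did not pass either. Sdhc, Atp5g1 and Uqcrc2 were called higher in KO DHT+ENZ against these same KO DHT libraries. Genes under 750 bases had a blocked median of -0.11 both for the 40 members and for all 286 genes. After the length correction the median of members was 0.01 with the block, beside 0.01 for all genes. With the effective-length offset the median of members was -0.10, beside -0.00 for all genes tested. Under 750 bases that offset gave -0.11 for the 40 members and -0.10 for all 286 genes.

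KO DMSO was set against WT DMSO to ask for the effect of the Chd1 guide. The KO DMSO libraries are also the reference for KO DHT and KO DHT+ENZ above, so these comparisons are not independent either. Members had a median log2 fold change of 0.07, beside -0.00 for all genes, and 67 of 82 were positive. None was called with or without the block, as for all genes (0.0% called), and DESeq2 called 0. Without the block 1 of 82 members, Ndufs1, had an unadjusted p under 0.05, beside 508 of all 16971 genes. With the block 9 members did, beside 1329 of all genes. The within-number medians were -0.01, 0.18, 0.01 and 0.09, and 18 members were higher in 4 of 4 numbers (22.0%, against 6.24% of all genes), with 2 lower (2.44%, against 6.57%). In TPM, 13 were higher in 4 of 4 (4.48% of all genes) and 3 lower (7.36%). The TPM medians were 0.09, 0.11, 0.02 and -0.02 for members, beside 0.01, -0.06, 0.04 and -0.04 for all genes. By complex the medians were 0.07, 0.09, 0.06, 0.03 and 0.08 for complexes I to V.

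Ndufs1, the large iron-sulfur subunit of complex I, was at 141, 143, 155 and 139 CPM in KO DMSO, against 108, 123, 132 and 144 CPM in WT DMSO. WT DMSO replicate 1, the shallowest library, was lowest and replicate 4 lay within the KO range (0.19, SE 0.07, adjusted p = 0.577, edgeR with the block). Sdha was at 410, 439, 463 and 432 CPM in KO DMSO, against 424, 376, 406 and 382 CPM in WT DMSO (0.13, SE 0.06, adjusted p = 0.631, edgeR with the block). The 2 members that were lower in every number were Cox6a2 (-0.35, adjusted p = 0.587) and Atp5g2 (-0.35, adjusted p = 0.587, edgeR with the block). After the length correction the blocked median of members was 0.04, beside -0.02 for all genes.

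**Figure D5:**
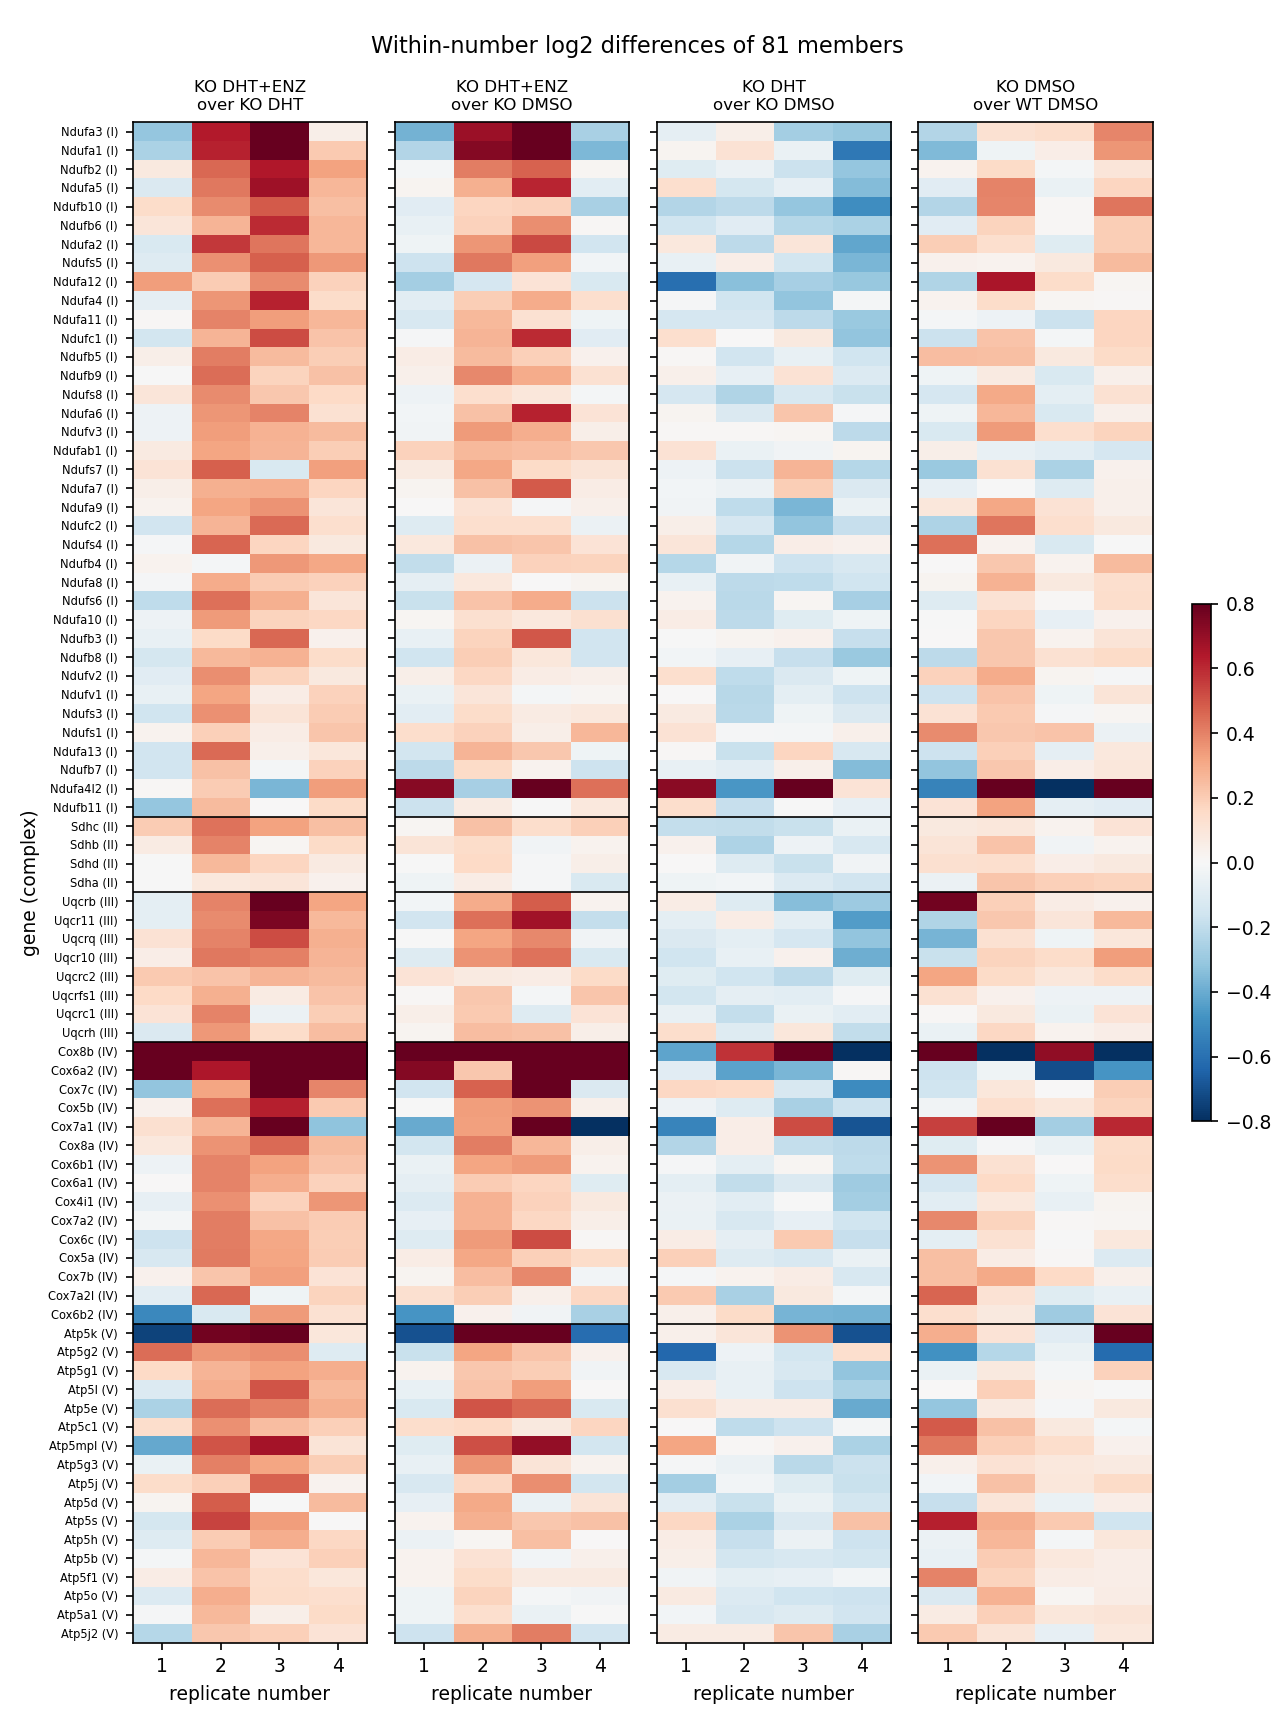
Log2 CPM difference between libraries of the same replicate number for 81 members, grouped by complex (lines) and ordered within it by the blocked fold change of KO DHT+ENZ over KO DHT; red is higher in the group named first, and colours end at 0.8 either way. In that comparison numbers 2, 3 and 4 are mostly red and number 1 is mixed; Cox8b and Cox6a2 are red in all 4.

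Of 45 assembly factors, 43 had a positive log2 fold change in KO DHT+ENZ over KO DHT (median 0.14, or 0.06 with block and length correction). The within-number medians were -0.05, 0.25, 0.19 and 0.10. With the block 1 of 45 rose, beside 1.57% of all genes called higher: Sco2, a copper chaperone of complex IV (8.18 ± 1.22 CPM in KO DHT+ENZ and 5.38 ± 0.78 in KO DHT, SD, n = 4 each; 0.62, SE 0.14, adjusted p = 0.0289, edgeR). All 13 listed genes of the TCA cycle were positive (median 0.15, or 0.12 with block and length correction), and 1 rose with the block: Idh3b, a subunit of isocitrate dehydrogenase (144 ± 4.15 CPM in KO DHT+ENZ and 124 ± 5.75 in KO DHT, SD, n = 4 each; 0.21, SE 0.05, adjusted p = 0.0288, edgeR). Neither was called with the effective-length offset (adjusted p = 0.0632 for Sco2 and 0.0646 for Idh3b, edgeR with the block). Cyc1 and Cycs, cytochrome c1 and cytochrome c, had a median of 0.21 with 0 called. No listed gene of these groups was called in the other 3 comparisons, by edgeR with or without the block.

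The 13 mitochondrially encoded subunits had 0 called in any comparison by edgeR with or without the block. Their median in KO DHT+ENZ over KO DHT was 0.55, with within-number medians of 0.67, 0.37, 0.82 and 0.33, and the smallest blocked adjusted p was 0.0754, for mt-Co2 (edgeR). In KO DHT over KO DMSO the median was -0.19. In KO DMSO over WT DMSO it was 0.41, but the within-number medians were 1.79, 0.04, 0.20 and 0.26, so number 1, with the shallow WT DMSO replicate 1, gave most of it. The libraries were made from polyA-selected RNA. The 16 listed regulators, among them Ppargc1a, Nrf1, Gabpa, Yy1 and Tfam, had a median of -0.06 in KO DHT+ENZ over KO DHT, with 6 positive and 0 called in any comparison.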

How the data were processed

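PolyA RNA was sequenced as paired 150 bp reads, with an integrity number above 8 and 30 M reads sought per sample, per the labels' protocols. Reads were quantified with kallisto against GRCm39, per the submitters' processing notes; versions are not given in the sources used here. The deposited expected counts (estimated counts per transcript) carry no normalization, and the deposited TPM values are scaled by effective length and library sum, per the file headers.

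Of 146190 transcripts, 135007 were matched by identifier to GENCODE M21, which is of another build and gave names, types and chromosomes only; they held 98.8% to 99.1% of the counts. Gene sums of these counts were rounded and tested in edgeR 4.0.16 (R 4.3.3): 1 quasi-likelihood fit of 4 groups on 16 libraries, TMM, filterByExpr, Benjamini-Hochberg over all 16971 genes, threshold 0.05. The SE is the absolute log2 fold change over the square root of F. Log2 CPM used a prior count of 2. DESeq2 1.42.0 was an alternative. The length correction removed, per library, a loess trend (span 0.5) of log2 CPM on transcript length. The effective-length offset used TPM-weighted effective lengths per gene and library. The fits, the trend and the offset were tested on simulated data.

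The planned fit has no block. Same-numbered libraries share a file prefix; their deviations from group means correlated at 0.16 to 0.79 over 9747 genes in the 4 comparisons, above the minimum of 0.1, so the numbers were taken as pairs and the blocked fit stands beside it (biological coefficient of variation 0.122 with the block, 0.212 without). Of 16 libraries, 10 were closest to one of their own number. P-values measure the spread between these cultures.

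Named in each comparison were Chd1, members called by either fit, then the smallest blocked p-values up to 12, and, in levels, complex II, genes of alternative subunits and the highest and lowest member of each complex. Of the 82 tested members, 1 enters the counts, sums and medians but is not reported individually here. Members and lists were chosen with earlier results of these data known. Python 3.11.15, pandas 2.3.3, numpy 2.4.6, scipy 1.17.1 and matplotlib 3.10.9 were used.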

Additional observations from a re-analysis of the deposited data

Results flagged for a closer look

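One library stood apart from its group in 148 groups of 4 values checked (named members and summed TPM of each complex). Ndufa9, an accessory subunit of complex I, was at 157.4 CPM in WT DMSO replicate 3 and at 128.0, 129.5 and 128.3 CPM in WT DMSO replicates 1, 2 and 4. The gap was 0.951 of the group's range, beyond Dixon's critical value for 4 samples. Chance alone marks about 1 group in 20 by this measure.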

How the results depend on the processing

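In KO DHT+ENZ over KO DHT, where 0 members were called by edgeR without the block, 7 were called with the replicate block, 4 with block and length correction, 3 with block and effective-length offset, 1 (Sdhc) with the length correction alone, 3 by DESeq2 and 16 by DESeq2 with the block. Leaving out 1 library without the block gave 0 in each case; leaving out all libraries of 1 number gave 0 to 46 with the block (46 without replicate 1, 1 without replicate 2, 1 without replicate 3, 0 without replicate 4). Without WT DMSO replicate 1 the blocked fit called 25, although that library is in neither group; the cause was not tested. In KO DHT+ENZ over KO DMSO the counts were 3 with the replicate block, 3 with block and length correction, 2 by DESeq2 with the block, 3 without WT DMSO replicate 1, and 0 to 4 without 1 number. In the other comparisons 0 were called under every alternative run. Shares of all genes were not taken for the DESeq2 fits, the length correction alone or the fits with libraries left out. Whether those counts are particular to members was not tested.

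The median log2 fold change kept its sign under every alternative run, except that for KO DHT over KO DMSO it was -0.10 and became 0.00418 with the length correction and 0.00504 with block and length correction. Leaving out libraries or numbers moved it between 0.134 and 0.286 (KO DHT+ENZ over KO DHT), 0.0483 and 0.198 (KO DHT+ENZ over KO DMSO), -0.144 and -0.0371 (KO DHT over KO DMSO) and 0.0345 and 0.146 (KO DMSO over WT DMSO). Chd1, near 0 throughout, changed sign in KO DHT+ENZ over KO DMSO with the length correction (-0.0247, or -0.0235 with the block) and the effective-length offset (-0.0605, or -0.0604 with the block). On leaving out libraries it ranged from -0.0136 to 0.0756 there (-0.0259 to 0.066 with the block), from -0.0329 to 0.0598 in KO DMSO over WT DMSO (-0.0301 to 0.0441 with the block; -0.0168 without replicate 1), and up to 0.0138 in KO DHT+ENZ over KO DHT with the block. No named member changed sign under any alternative run. The alternatives without WT DMSO replicate 1 with the block, and with the effective-length offset, were chosen after the data were seen. Counts of 1 to 34, and a low-count filter passed only through KO DHT+ENZ, limit Cox8b, and pseudogenes limit Ndufb4.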
